A study of Homo sapiens with 75 samples.

Results

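A set of genes that rose strongly after irradiation in the B lymphoblastoid line TK6 were followed across 5 human cell lines. The genes are FUCA1, TP53I3, GASK1B, CYP4F3, TNFSF4, CEACAM1, ZNF697, ASTN2, FAM13C and DUSP14, 10 of 19775 genes with a probe set of their own on the arrays. They were chosen by the measured difference between irradiated and untreated cells, which was large in TK6 and small in the other lines, so those differences are given as a description. Where the calls of the linear model for irradiation are counted below, they describe the members, with no p, and nothing is read from them, in TK6 or in the other lines. Where a gene had several probe sets, the one brightest on average across the 75 arrays was read.

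Messenger RNA was measured on 1 array per sample in TK6, in the osteosarcoma line U2OS, in the fibroblasts BJ, in the melanoma line G361 and in cells labelled HepG2, a hepatoma line. In each line, 3 arrays came from cells collected 3 h after 5 Gy of ionising radiation (IR) and 3 from cells collected after 6 h. Mock-irradiated cells, called untreated in the labels, gave 3 arrays each at 0 h, 3 h and 6 h. All 5 lines are cell lines grown in culture in the same medium, and none carried a further treatment. The labels do not say whether the 3 replicates of a group were separate cultures, and a p-value then reflects only the scatter among these arrays.

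Ionising radiation breaks DNA. The damage is sensed by kinases that stabilise the transcription factor p53, which binds a sequence made of a pair of half-sites near its target genes and raises their transcription. Among its targets are genes for cell-cycle arrest, apoptosis, repair and metabolism, and genes such as MDM2 and PPM1D whose products shut p53 down again. An array reads the RNA of all cells of a sample together, so more cells with a transcript and more transcript per cell cannot be told apart.

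The labels of the lines were set against marker genes. All 10 measured B-lymphoid markers were highest in TK6, all 12 fibroblast markers in BJ and all 7 melanocyte markers in G361. Only 1 of 9 hepatocyte markers was highest in the arrays labelled HepG2, and 5 were below the level limit there; their mean level was 3.65 to 3.85 log2 in those arrays, against 4.15 to 4.55 log2 in U2OS, where 5 of the 9 were highest. These arrays are therefore named by their label only. The level limit, 3.47 to 3.52 log2 depending on the line, is the level below which 40% of probe-set means in that line fall. Of 5 osteoblast markers, 2 were highest in U2OS and 2 in the arrays labelled HepG2, with a mean level of 5.27 to 5.65 log2 in U2OS and 5.17 to 5.49 log2 in those labelled HepG2. In G361, 2 replicate 3 arrays stood apart from their groups. The mean level of the listed p53 targets, relative to 0 h, was 0.50 log2 in replicate 3 of untreated cells at 3 h, against 0.08 and 0.07 log2 in replicates 1 and 2. It was 0.04 log2 in replicate 3 at 6 h, against 0.52 and 0.54 log2 in replicates 1 and 2. Replicate 3 of each time thus lay near replicates 1 and 2 of the other time, and the labels were used as given. No member was called in G361 in any comparison of the time course or of irradiation, with or without replicate 3. These arrays widen the spread within their groups, and without replicate 3 only 2 arrays a group remain. The absence of calls in G361 therefore says little.

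The stretches before the start sites show how unlike the genes are where transcription begins. RefSeq lists 15 start sites for the 10 genes (assembly GRCh38.p14). In the 250 bases before a start site, the number of CG dinucleotides was 42 for DUSP14, 24 to 32 for ASTN2, 22 for FUCA1 and 20 for ZNF697. It was 6 for TP53I3, 5 for TNFSF4, 2 to 3 for GASK1B, 2 for CYP4F3 and 1 for CEACAM1, and 4 to 26 for FAM13C. Over all 35116 start sites the median was 11 and the quartiles were 3 and 23. The members therefore came from both ends of that range. The stretches of the 4 genes that exceeded the other lines most are shown, with each CG in capitals, at chr1:23868291-23868540, minus strand (FUCA1), chr2:24084835-24085084, minus strand (TP53I3), chr4:158173026-158173275, minus strand (GASK1B), and chr19:15641062-15641311, plus strand (CYP4F3).
FUCA1: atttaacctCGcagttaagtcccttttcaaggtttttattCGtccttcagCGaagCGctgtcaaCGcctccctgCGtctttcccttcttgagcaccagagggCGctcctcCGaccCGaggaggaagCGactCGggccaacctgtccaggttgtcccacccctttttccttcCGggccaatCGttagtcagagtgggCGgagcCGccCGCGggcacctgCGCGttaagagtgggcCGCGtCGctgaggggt
TP53I3: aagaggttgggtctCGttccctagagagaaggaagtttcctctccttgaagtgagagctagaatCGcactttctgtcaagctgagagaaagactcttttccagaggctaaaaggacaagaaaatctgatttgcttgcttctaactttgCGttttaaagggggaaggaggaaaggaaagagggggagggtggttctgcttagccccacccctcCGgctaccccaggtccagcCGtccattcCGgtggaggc
GASK1B: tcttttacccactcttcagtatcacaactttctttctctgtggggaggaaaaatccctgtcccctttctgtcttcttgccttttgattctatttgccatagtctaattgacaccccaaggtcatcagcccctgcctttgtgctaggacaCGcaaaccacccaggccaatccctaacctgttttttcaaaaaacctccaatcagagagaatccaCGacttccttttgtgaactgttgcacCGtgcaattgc
CYP4F3: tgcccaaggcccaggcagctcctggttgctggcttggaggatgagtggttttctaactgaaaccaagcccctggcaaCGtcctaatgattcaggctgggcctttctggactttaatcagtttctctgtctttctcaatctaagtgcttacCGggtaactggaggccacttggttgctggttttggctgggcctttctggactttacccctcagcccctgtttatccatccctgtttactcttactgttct

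The 15 windows, here from 250 bases before to 50 after the start site, were also searched on both strands for an exact match to the p53 half-site consensus. It occurred in 2 windows, both of FAM13C and both just after a start site, with the first base at position 3 and at position 27. It occurred in 6.63% of all windows and in 9 of 54 windows of the listed p53 targets, which belonged to 9 of 38 genes. A match of 10 letters is a description of the sequence, and a window without one says nothing of p53. The 2 matches are shown in capitals with the bases around them, at chr10:59362528-59362557 and chr10:59362858-59362887, both minus strand.
FAM13C, start site with 26 CG before it: gcgagcccggAGACTTGCCTtgcaatgcca
FAM13C, start site with 4 CG before it: atgtggaagaAAGCAAGTCTcccgggtatt

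In TK6 all members were higher in irradiated than in untreated cells at 6 h, from 2.03-fold for DUSP14 to 22.9-fold for FUCA1. A gene was called where the adjusted p of the linear model was under 0.05. At 3 h, 9 of 10 were called higher, all but CYP4F3, where 1.88% of all genes tested were. At 6 h, 10 of 10 were called, where 4.01% of all genes were. All irradiated arrays lay above all untreated ones for 9 of 10 members at 3 h and 10 of 10 at 6 h, where 8.37% and 13.1% of all genes did. Nothing is read from these counts, since the comparison chose the members. CYP4F3 and FAM13C also passed the level limit in TK6 only with irradiated arrays in their mean. The median difference of the members was 1.82 log2 at 3 h and 2.97 log2 at 6 h, against 0.01 log2 at both times over all genes. With untreated means below the level limit raised to that limit, it was 1.61 log2 at 3 h and 2.60 log2 at 6 h.

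**Figure D1:**
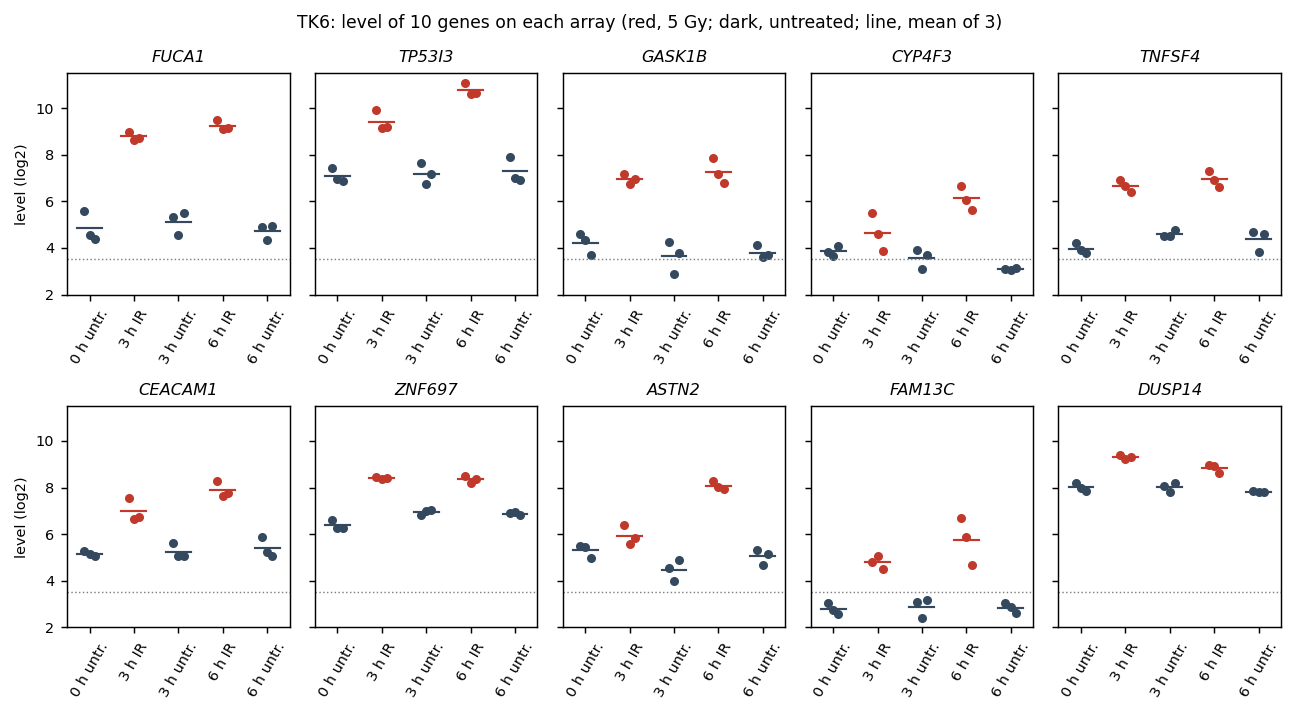
Level (log2) of the 10 genes on each TK6 array, by group; red points are irradiated and dark points untreated arrays, short lines are means of 3 arrays and the dotted line is the level limit of TK6. At 6 h the irradiated arrays of every gene lie above all untreated arrays of that time.

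Some members are enzymes. FUCA1 encodes the lysosomal fucosidase that removes fucose from glycoproteins and glycolipids, and is a known p53 target. Its level in TK6 was 8.98, 8.66 and 8.74 log2 in irradiated cells at 3 h, against 5.35, 4.53 and 5.49 log2 in untreated cells. At 6 h it was 9.51, 9.10 and 9.16 log2 in irradiated cells, against 4.90, 4.34 and 4.96 log2 in untreated cells. The groups were far apart at both times, and the difference was 3.67 log2 at 3 h and 4.52 log2 at 6 h (SE 0.28, n = 3 each). It ranked first among the 14227 genes tested in TK6 by how far its difference at 6 h lay above the largest of the other 4 lines.

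TP53I3 encodes a quinone oxidoreductase and is a known p53 target. It had 9.91, 9.16 and 9.18 log2 in irradiated TK6 cells at 3 h, against 7.65, 6.75 and 7.17 log2 in untreated cells. Irradiated cells at 6 h had 11.08, 10.62 and 10.65 log2, against 7.90, 7.02 and 6.93 log2 in untreated cells. Replicate 1 was the highest of each of these groups, and the irradiated and untreated groups did not overlap. The difference was 2.23 log2 at 3 h and 3.50 log2 at 6 h (SE 0.26), and the gene ranked second.

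CYP4F3 encodes a cytochrome P450 that hydroxylates leukotriene B4. In irradiated TK6 cells it had 5.49, 4.59 and 3.85 log2 at 3 h, against 3.91, 3.11 and 3.69 log2 in untreated cells, and these groups overlapped. At 6 h it had 6.67, 6.08 and 5.64 log2 in irradiated cells, against 3.12, 3.06 and 3.14 log2 in untreated cells. The untreated arrays were then below the level limit. The irradiated mean was 6.11-fold above that limit, so at least that far above untreated cells. Unlike FUCA1 and GASK1B, it had most of its difference only at 6 h. Its close paralog CYP4F2, read from another probe set, also rose in TK6, by 0.94 log2 at 3 h (adjusted p = 0.027) and 2.28 log2 at 6 h (adjusted p = 4.9e-06, limma). Whether the probes of the paralogs share targets was not tested.

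DUSP14 encodes a dual-specificity phosphatase that acts on MAP kinases. It had 9.38, 9.23 and 9.32 log2 in irradiated TK6 cells at 3 h, against 8.08, 7.83 and 8.20 log2 in untreated cells. Irradiated cells at 6 h had 8.98, 8.92 and 8.63 log2, against 7.87, 7.80 and 7.80 log2 in untreated cells. The groups did not overlap, but the difference, 1.27 log2 at 3 h and 1.02 log2 at 6 h (SE 0.12), was the smallest of the members at 6 h. By the excess over the other lines it ranked 127 of 14227.

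Another pair acts at the cell surface of immune and other cells. TNFSF4 encodes OX40 ligand, which co-stimulates T cells. It had 6.90, 6.67 and 6.42 log2 in irradiated TK6 cells at 3 h, against 4.53, 4.50 and 4.78 log2 in untreated cells. At 6 h it had 7.32, 6.91 and 6.62 log2 in irradiated cells, against 4.68, 3.84 and 4.59 log2 in untreated cells. The groups were well apart, with differences of 2.06 and 2.58 log2 (SE 0.23).

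CEACAM1 encodes an adhesion molecule with inhibitory signalling motifs. It had 7.57, 6.66 and 6.72 log2 in irradiated TK6 cells at 3 h, against 5.63, 5.05 and 5.08 log2 in untreated cells. Irradiated cells at 6 h had 8.27, 7.62 and 7.76 log2, against 5.88, 5.22 and 5.06 log2 in untreated cells. No array of one group reached the other, and the differences were 1.73 and 2.50 log2 (SE 0.26).

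GASK1B encodes a Golgi-associated protein and ASTN2 a membrane protein known from neurons. GASK1B had 7.18, 6.73 and 6.97 log2 in irradiated TK6 cells at 3 h, against 4.26, 2.88 and 3.78 log2 in untreated cells. At 6 h it had 7.85, 7.18 and 6.80 log2 in irradiated cells, against 4.11, 3.62 and 3.69 log2 in untreated cells. Its difference, 3.32 log2 at 3 h and 3.47 log2 at 6 h (SE 0.32), was nearly complete at the earlier time.

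ASTN2 behaved otherwise. It had 6.41, 5.60 and 5.81 log2 in irradiated TK6 cells at 3 h, against 4.56, 3.98 and 4.89 log2 in untreated cells. Irradiated cells at 6 h had 8.30, 8.03 and 7.93 log2, against 5.32, 4.67 and 5.16 log2 in untreated cells. The groups did not overlap at either time. The difference was 1.46 log2 at 3 h and 3.03 log2 at 6 h (SE 0.25). The untreated level at 3 h was itself below that at 0 h on every array, and against 0 h the irradiated cells at 3 h differed by 0.63 log2.

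ZNF697 encodes a zinc-finger protein, and FAM13C is named without a role. ZNF697 had 8.47, 8.39 and 8.41 log2 in irradiated TK6 cells at 3 h, against 6.82, 6.99 and 7.02 log2 in untreated cells. At 6 h it had 8.51, 8.20 and 8.35 log2 in irradiated cells, against 6.89, 6.97 and 6.80 log2 in untreated cells. The replicates lay close together, and the difference of 1.48 log2 at 3 h was as large as that of 1.47 log2 at 6 h (SE 0.12). It ranked 28 of 14227.

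FAM13C had 4.80, 5.06 and 4.51 log2 in irradiated TK6 cells at 3 h, against 3.10, 2.38 and 3.17 log2 in untreated cells. Irradiated cells at 6 h had 6.71, 5.89 and 4.67 log2, against 3.06, 2.87 and 2.61 log2 in untreated cells. Irradiated replicates at 6 h spread widely (SD 1.03 log2) but all lay above the untreated ones. Untreated cells were below the level limit at both times. The irradiated mean was 2.42-fold above the limit at 3 h and 4.72-fold above it at 6 h, so at least that far above untreated cells.

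In TK6 the course from 3 h to 6 h varied in value from member to member, and members were not tested against each other. The effect at 6 h minus that at 3 h was 1.57 log2 for ASTN2 (SE 0.35) and 1.27 log2 for TP53I3 (SE 0.37). It was 0.85 log2 for FUCA1, 0.76 log2 for CEACAM1 and 0.52 log2 for TNFSF4. It was 0.15 log2 for GASK1B, -0.01 log2 for ZNF697 and -0.25 log2 for DUSP14. It has no exact size for CYP4F3 and FAM13C, whose untreated cells were below the level limit at 6 h. None of the 10 was called for this difference, where 0.295% of all genes were.

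**Figure D2:**
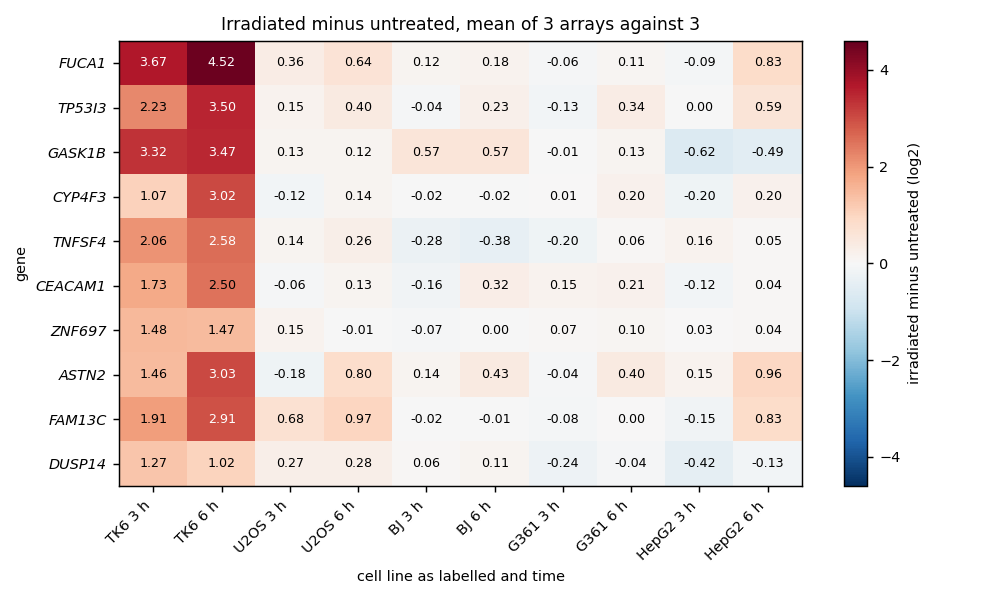
Mean of 3 irradiated arrays minus mean of 3 untreated arrays (log2, colour and number) for each gene in rows, by labelled cell line and time in columns. All large differences stand in the TK6 columns, from 1.02 to 4.52 log2 at 6 h, and the largest in any other line, by the probe sets read, is 0.97 log2 for FAM13C in U2OS.

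Outside TK6 the small differences were fixed by the choice of the members. None was called higher after irradiation in any line (limma), but some lay apart from untreated cells at 6 h. Few genes of the whole table were called higher there: 0.0751% at 3 h and 0.307% at 6 h in U2OS, 0.18% and 0.145% in BJ, and 0% at both times in G361 and in the arrays labelled HepG2. At an unadjusted p under 0.05, 106 and 226 genes passed at 3 h and 6 h in G361, and 809 and 917 in the arrays labelled HepG2. In U2OS, 7 members passed the level limit; the others were CYP4F3, TNFSF4 and CEACAM1, all below it. For 4 of the 7 all irradiated arrays lay above all untreated ones at 6 h, where 5.52% of all genes did. FAM13C had 7.0, 6.89 and 6.71 log2 in irradiated U2OS cells at 6 h, against 5.11, 5.89 and 6.67 log2 in untreated cells. ASTN2 had 6.28, 5.69 and 5.93 log2 in irradiated U2OS cells, against 5.18, 5.48 and 4.83 log2 in untreated cells. The other 2 were TP53I3, with a difference of 0.40 log2 (SE 0.13), and DUSP14, with 0.28 log2 (SE 0.17). FUCA1 had 7.37, 6.33 and 6.50 log2 in irradiated U2OS cells at 6 h, against 6.65, 5.85 and 5.79 log2 in untreated cells. These groups overlapped, with a difference of 0.64 log2 (SE 0.31), but replicate 1 was the highest of both and each irradiated array was above the untreated one of its number. FAM13C and ASTN2 were thus the members with the largest differences in U2OS, 0.97 log2 (SE 0.46) and 0.80 log2 (SE 0.27). ASTN2 was the only one called in U2OS where all probe sets of a gene were averaged, with 90 of all genes called at 6 h. TP53I3 was the only one called with quantile normalization or without replicate 1, with 137 and 255 of all genes called at 6 h.

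In BJ, 7 members passed the limit, and at 6 h all irradiated arrays lay above all untreated ones for 4 of them, where 5.92% of all genes did. These were GASK1B, ASTN2, TP53I3 and FUCA1. GASK1B had 7.59, 7.20 and 7.05 log2 in irradiated BJ cells at 6 h, against 6.75, 6.99 and 6.39 log2 in untreated cells. Its untreated level was also higher at 6 h than at 0 h, when it was 6.25, 6.25 and 5.83 log2. That change of 0.60 log2 did not pass the test (adjusted p = 0.56, limma). The irradiation difference was 0.57 log2 at both times (SE 0.21), 0.43 log2 for ASTN2, 0.23 log2 for TP53I3 and 0.18 log2 for FUCA1 at 6 h. TNFSF4, which among untreated cells at 0 h was highest in BJ, differed there by -0.28 log2 at 3 h and -0.38 log2 at 6 h (SE 0.24), and its groups overlapped.

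In G361, 8 members passed the limit and at 6 h the irradiated and untreated arrays overlapped for every one of them, where 3.07% of all genes lay wholly above and 2.89% wholly below. The largest differences at 6 h were 0.40 log2 for ASTN2 and 0.34 log2 for TP53I3. Without replicate 3 the TP53I3 difference was 0.12 log2, and without replicate 1 that of ASTN2 was 0.13 log2.

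In the arrays labelled HepG2, 7 members passed the limit, and 4 of them stood above untreated cells at 6 h, where 7.2% of all genes did. FUCA1 had 8.98, 9.25 and 9.06 log2 in irradiated cells at 6 h, against 8.18, 8.43 and 8.18 log2 in untreated cells. ASTN2 had 6.32, 6.17 and 5.67 log2 in irradiated cells, against 5.12, 4.80 and 5.36 log2 in untreated cells. These differences were 0.83 log2 (SE 0.18) and 0.96 log2 (SE 0.20). FAM13C differed by 0.83 log2 (SE 0.24) and TP53I3 by 0.59 log2 (SE 0.13). With the replicate number as a block, 3 members were called at 6 h, namely FUCA1, ASTN2 and TP53I3, where 56 of all genes were. Without replicate 1 there were 4, FAM13C among them, where 370 of all genes were called. Nothing is read from these counts, since the comparison chose the members. At 3 h the same 4 genes differed by -0.15 to 0.15 log2. GASK1B and DUSP14, 2 of 7 members, lay wholly below untreated cells at 3 h, where 8.23% of all genes did. Both were called lower only without replicate 1, where 935 of all genes were called in either direction. GASK1B had 4.98, 4.74 and 5.12 log2 in irradiated cells at 3 h, against 5.13, 5.81 and 5.77 log2 in untreated cells. DUSP14 had 9.06, 8.83 and 8.86 log2 in irradiated cells at 3 h, against 9.12, 9.51 and 9.38 log2 in untreated cells. At 6 h DUSP14 alone lay wholly below, where 7.02% of all genes did.

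The untreated cells labelled HepG2 changed with time. FUCA1 had 8.18, 8.43 and 8.18 log2 at 6 h, against 5.83, 6.54 and 6.44 log2 at 0 h. The 6 h arrays were all higher, by 1.99 log2 (SE 0.18; adjusted p = 3.0e-06, limma), which is 3.99-fold. At 3 h it had 6.33, 6.88 and 6.73 log2, and the difference from 0 h of 0.38 log2 did not pass the test (adjusted p = 0.48). FUCA1 was the only 1 of 7 members called higher at 6 h, where 0.508% of all genes were. The untreated arrays at 3 h and 6 h also entered the differences that chose the members. The p-values of the members here are therefore not independent of that choice. The DUSP14 and TP53I3 arrays at 6 h also lay above all those at 0 h, but their mean differences of 0.34 log2 (adjusted p = 0.13) and 0.28 log2 (adjusted p = 0.40) did not pass the test. ASTN2 differed by 0.01 log2 and FAM13C by -0.04 log2. Of 42 listed p53 targets tested in these arrays, 15 were called higher at 6 h than at 0 h and 0 lower. MDM2 had 9.37, 9.60 and 9.43 log2 at 6 h, against 8.16, 8.63 and 8.46 log2 at 0 h. Such a rise was not seen in these arrays alone. The list median of the untreated change from 0 h to 6 h was 0.49 log2 in them and 0.33 log2 in G361, where 0 of 40 were called. It was 0.10 log2 in U2OS, -0.01 log2 in BJ and -0.15 log2 in TK6. The part of the listed targets' rise in the rise of FUCA1 was not tested.

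Both irradiated and untreated cells of these arrays thus had a high FUCA1 level at 6 h. Against untreated cells at 0 h, irradiated cells at 6 h differed by 2.83 log2 for FUCA1, a 7.11-fold difference. The same comparison gave 0.97 log2 for ASTN2, 0.87 log2 for TP53I3 and 0.79 log2 for FAM13C. In TK6 it gave 4.41 log2 for FUCA1, 2.78 log2 for ASTN2 and 3.70 log2 for TP53I3, while FAM13C was below the level limit at 0 h and has no exact size there.

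**Figure D3:**
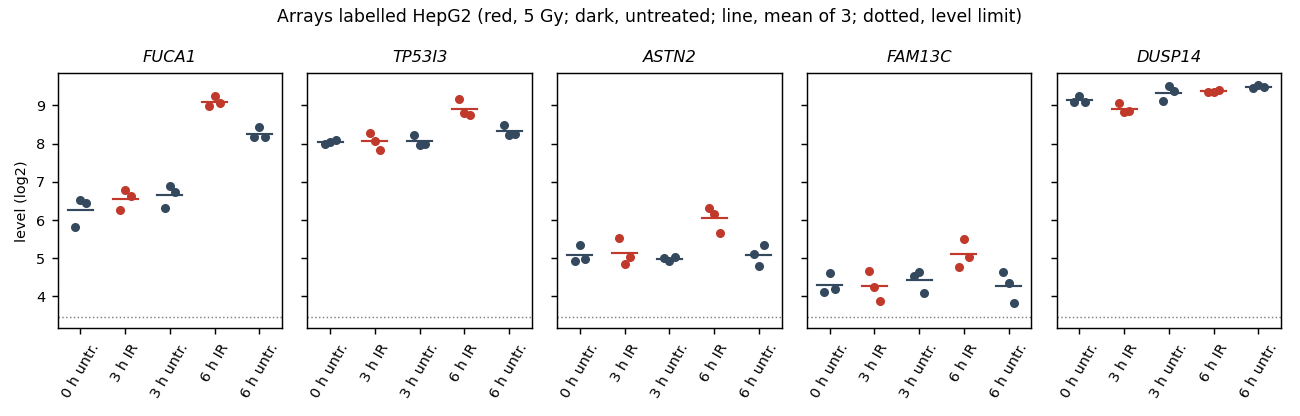
Level (log2) of 5 of the genes on each array labelled HepG2, by group; red points are irradiated and dark points untreated arrays, short lines are means of 3 arrays and the dotted line is the level limit. Untreated FUCA1 sits at 8.18 to 8.43 log2 at 6 h, above all untreated arrays at 0 h.

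The change of untreated FUCA1 between 0 h and 6 h differed between the lines (moderated F = 11.2, adjusted p = 3.6e-04, limma on 75 arrays). It was the only 1 of 10 members called, where 1.18% of all genes were. The untreated arrays at 6 h also entered the choice of the members, so the test is not independent of it. The call was lost without replicate 2 (adjusted p = 0.15) and without replicate 3 (adjusted p = 0.099), while the change in the HepG2-labelled arrays alone was called in each case. In TK6 the change was -0.11 log2. At 3 h no member was called for a difference between lines, where 0.749% of all genes were, with ZNF697 nearest (F = 5.46, adjusted p = 0.074).

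In untreated TK6 cells ZNF697 was the 1 member of 10 called. The untreated arrays at 3 h and 6 h also entered the choice of the members, so a call here is not independent of it. Among the 10, CYP4F3 and FAM13C passed the level limit in TK6 only with irradiated arrays in their mean. ZNF697 had 6.82, 6.99 and 7.02 log2 at 3 h, against 6.60, 6.28 and 6.27 log2 at 0 h. It was higher by 0.56 log2 at 3 h (adjusted p = 0.028), where 0.731% of all genes were called higher, and by 0.50 log2 at 6 h (adjusted p = 0.024), where 1.81% were. Both calls were lost without replicate 2 or replicate 3 (adjusted p 0.33 to 0.55) and where its probe sets were averaged (0.35 and 0.42). ASTN2 fell short of the test at 3 h, with a change of -0.83 log2 (adjusted p = 0.10). It had 4.56, 3.98 and 4.89 log2 at 3 h, against 5.51, 5.43 and 4.99 log2 at 0 h.

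Levels before irradiation were compared in untreated cells at 0 h. These arrays did not enter the choice of the members. Untreated levels at 3 h and 6 h did, in TK6 and in the other lines, through the chosen differences. Against the mean of the other 4 lines, 6 of 10 members were lower in TK6, where 28.1% of all genes were, and 2 were higher, where 28% were. The differences were -2.78 log2 for GASK1B, -2.63 log2 for ZNF697, -2.25 log2 for FUCA1, -1.18 log2 for TP53I3 and -0.88 log2 for DUSP14. FAM13C, the other lower member, and CYP4F3 and CEACAM1, the higher ones, were below the level limit in several of the lines, so their differences have no exact size. ASTN2 (-0.09 log2, adjusted p = 0.66) did not pass the test, nor did TNFSF4 (adjusted p = 0.60), which was below the limit in U2OS and in the arrays labelled HepG2.

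FUCA1, GASK1B, ZNF697 and DUSP14, 4 of 10 members, were lower in TK6 than in each of the 4 other lines, where 8.15% of all genes were. FUCA1 averaged 4.85 ± 0.65 log2 in TK6, against 6.00 ± 0.44 in U2OS, 6.27 ± 0.38 in HepG2, 7.90 ± 0.30 in G361 and 8.21 ± 0.28 in BJ (SD, n = 3 each). U2OS and HepG2 did not differ beyond their spread, nor did G361 and BJ. GASK1B averaged 4.21 ± 0.48 log2 in TK6, 5.23 ± 0.77 in HepG2, 6.11 ± 0.24 in BJ, 7.80 ± 0.43 in U2OS and 8.81 ± 0.26 in G361. All its neighbours in that order differed. The call between TK6 and HepG2 was lost without replicate 2 or 3 (adjusted p = 0.12 and 0.093).

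ZNF697 averaged 6.38 ± 0.19 log2 in TK6, 8.03 ± 0.14 in BJ, 8.37 ± 0.08 in U2OS, 9.71 ± 0.14 in G361 and 9.93 ± 0.22 in HepG2. BJ and U2OS did not differ beyond the test, nor did G361 and HepG2. DUSP14 averaged 8.0 ± 0.19 log2 in TK6, 8.45 ± 0.06 in U2OS, 8.97 ± 0.17 in G361, 8.98 ± 0.06 in BJ and 9.15 ± 0.08 in HepG2. G361, BJ and HepG2 did not differ from one to the next, and the call between TK6 and U2OS was lost without replicate 2 or 3 (adjusted p = 0.13 and 0.18).

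CYP4F3 was the only 1 of 10 higher in TK6 than in each other line, where 10.4% of all genes were. CYP4F3 passed the level limit only with irradiated TK6 arrays in the mean. Nothing is therefore read from its place in the counts of 0 h levels. It averaged 3.85 ± 0.22 log2 in TK6, just above the level limit, and 2.42 to 2.64 log2 in the other lines, below it. CEACAM1 averaged 5.16 ± 0.13 log2 in TK6, below G361 at 6.27 ± 0.30, and lay between 3.02 and 3.27 log2, under the limit, in the rest. TNFSF4 averaged 3.97 ± 0.21 log2 in TK6, against 6.28 ± 0.30 in BJ, and TK6 did not differ from G361 at 3.62 ± 0.27.

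TP53I3 averaged 7.09 ± 0.29 log2 in TK6, 6.35 ± 0.12 in G361, 8.04 ± 0.04 in HepG2, 9.01 ± 0.09 in BJ and 9.66 ± 0.14 in U2OS, and all neighbours in level differed. FAM13C was below the limit in TK6, G361 and BJ, and averaged 4.31 ± 0.27 log2 in HepG2 and 5.40 ± 0.26 in U2OS. ASTN2 ranged from 4.96 log2 in U2OS to 5.89 log2 in G361 and no neighbours in its order differed. It was lower in TK6 than in G361 by 0.58 log2 (adjusted p = 0.014), a call lost without replicate 2 or 3 (adjusted p = 0.10 and 0.13).

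**Figure D4:**
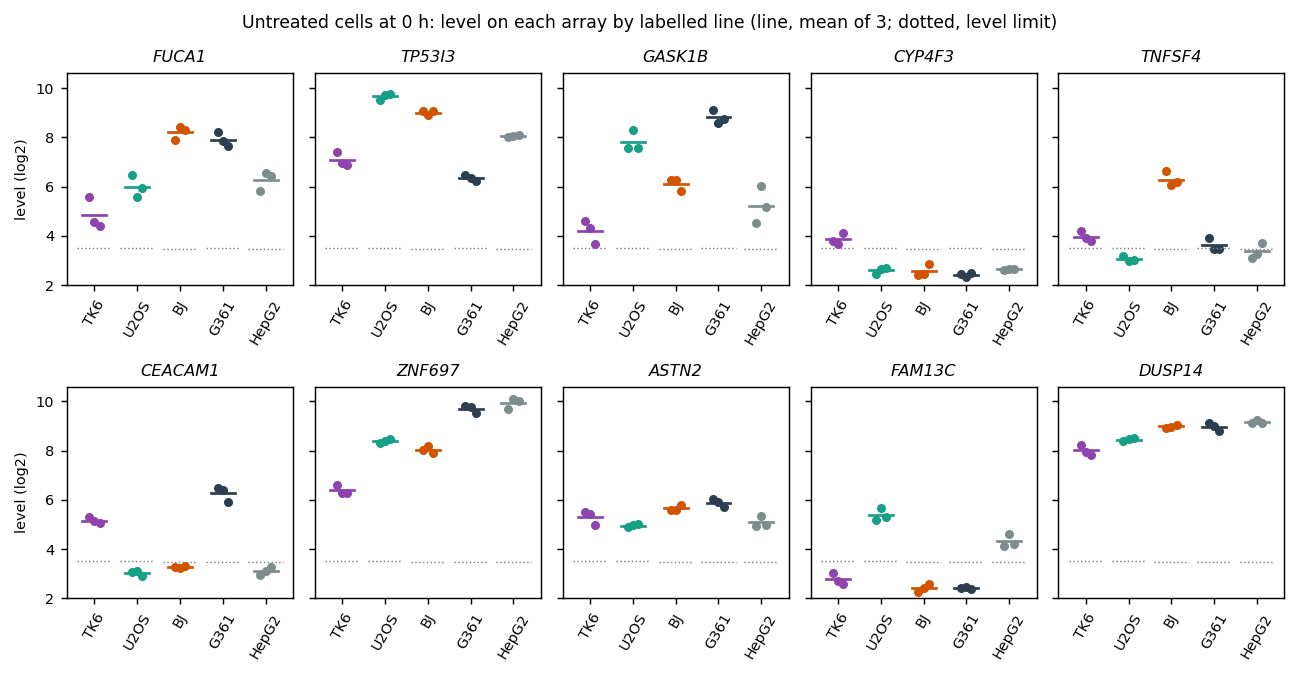
Level (log2) of the 10 genes on each array of untreated cells at 0 h, by labelled cell line; points are arrays, short lines are means of 3 and dotted lines are the level limit of each line. FUCA1, GASK1B, ZNF697 and DUSP14 are lowest in TK6, and CYP4F3 is above the limit in TK6 only.

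Pair by pair, 3 members were higher and 6 lower in TK6 than in U2OS, where 24.2% and 28.5% of all genes were. Against BJ 2 were higher and 6 lower (30.9% and 25.3% of all genes), and against G361 2 and 6 (23.6% and 24.2%). Against HepG2 3 were higher and 6 lower (25% and 20.6%).

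Levels in irradiated TK6 cells at 6 h were set against the highest level of the other lines at 0 h. FUCA1 reached 9.26 log2 in irradiated TK6 cells at 6 h, against 8.21 log2 in untreated BJ cells at 0 h, the highest of the other lines. TP53I3 reached 10.78 log2, against 9.66 log2 in U2OS. FAM13C reached 5.76 log2, against 5.40 log2 in U2OS. ASTN2 reached 8.09 log2, against 5.89 log2 in G361, and CEACAM1 7.88 log2, against 6.27 log2 in G361. TNFSF4 reached 6.95 log2, against 6.28 log2 in BJ. CYP4F3 reached 6.13 log2, while the other lines were below the level limit. GASK1B, ZNF697 and DUSP14 stayed below the highest untreated line. GASK1B reached 7.27 log2, against 8.81 log2 in G361. ZNF697 reached 8.35 log2, against 9.93 log2 in HepG2, and DUSP14 reached 8.84 log2, against 9.15 log2 in HepG2. These level differences were not tested.

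The other p53 targets give the setting. From a list of 48 such genes with no member in it, 44 were measured. The list was written with earlier results of these data known. In TK6, 32 of 40 tested were called higher at 3 h, where 1.88% of all genes were, and 34 at 6 h, where 4.01% were. At both times 0 were lower, and the list median was 1.04 and 1.26 log2. In U2OS, 9 of 40 were higher at 3 h, where 0.0751% of all genes were, and 20 at 6 h, where 0.307% were. With the replicate block the count at 3 h was 14, and without replicate 2 or 3 it was 2 and 1; at 6 h these gave 7 and 4. In BJ, 15 of 42 were higher at 3 h and 12 at 6 h, where 0.18% and 0.145% of all genes were; at 6 h the count was 6, 1 and 0 without replicate 1, 2 and 3. In G361 and in the arrays labelled HepG2, 0 were called (limma; the unadjusted counts over all genes stand above). In the arrays labelled HepG2, 5 were called at 6 h with the replicate block and 12 without replicate 1, where 56 and 370 of all genes were. The G361 comparisons include the replicate 3 arrays that stood apart.

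Of the 4 listed targets with the largest rise in TK6 at 6 h, 3 were also called in U2OS. TP53INP1, which promotes p53-dependent apoptosis, rose by 3.21 log2 in TK6 (adjusted p = 1.6e-08) and by 2.17 log2 in U2OS (adjusted p = 5.7e-04). GDF15, a secreted stress cytokine, rose by 3.16 log2 in TK6 (adjusted p = 2.6e-08) and by 2.81 log2 in U2OS (adjusted p = 3.6e-05). SESN1, a stress-induced inhibitor of growth signalling, rose by 2.50 log2 in TK6 (adjusted p = 1.7e-07) and by 1.73 log2 in U2OS (adjusted p = 1.7e-04). RRM2B, a ribonucleotide reductase subunit, rose by 2.08 log2 in TK6 and differed by 0.77 log2 in U2OS, not called (adjusted p = 0.088). The 4 with the smallest change in TK6, PLK3, SPATA18, TNFRSF10C and CMBL, had 0.02, 0.13, -0.15 and -0.22 log2.

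Against the largest of the other 4 lines, the TK6 difference at 6 h was larger for 29 of 40 listed targets, by a median of 0.36 log2. For the members the median excess was 2.25 log2, ranging from 0.73 log2 for DUSP14 to 3.69 log2 for FUCA1. The highest excess among the listed targets was 1.49 log2. This difference between the lists is what the choice of the members fixed.

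**Figure D5:**
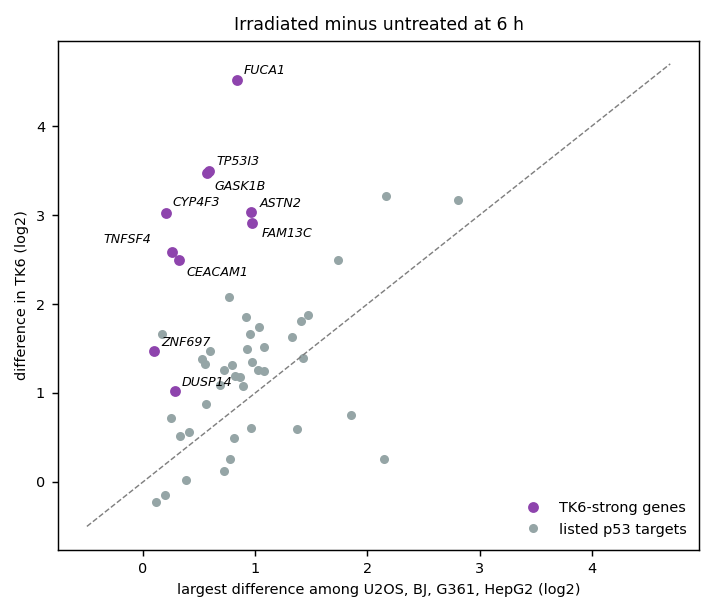
Irradiated minus untreated at 6 h (log2) in TK6, vertical axis, against the largest such difference among the other 4 lines, horizontal axis, for the 10 genes (purple, named) and 40 listed p53 targets (grey); the dashed line marks equal values. By the probe sets read, the named genes have at most 0.97 log2 in any other line, and 14 of the 40 listed targets have more.

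The feedback genes of p53 rose in TK6 as well. MDM2, the ubiquitin ligase that degrades p53, rose by 1.88 log2 at both 3 h (adjusted p = 1.1e-06) and 6 h (adjusted p = 1.4e-06). PPM1D, a phosphatase that reverses damage signalling, rose by 1.68 log2 and 1.63 log2 (adjusted p = 1.0e-08 and 2.2e-08). MDM4, CHEK2, ATM and CDKN2A did not pass the test in TK6, with differences between -0.24 and 0.08 log2.

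Close relatives of the members mostly did not follow them in TK6. Of 34 listed relatives 24 were tested. At 3 h 2 were called higher, where 1.88% of all genes were, and 1 lower, where 300 of 14227 genes were. At 6 h 2 were called higher, where 4.01% of all genes were, and 0 lower. Whether relatives differ from all genes was not tested. The median difference was 0.01 and 0.07 log2. Besides CYP4F2 the riser was TNFSF9, the ligand of 4-1BB, by 1.50 log2 at 3 h (adjusted p = 0.0016) and 1.61 log2 at 6 h (adjusted p = 7.7e-04). DUSP7 fell by 0.51 log2 at 3 h (adjusted p = 0.027). FUCA2, the secreted relative of FUCA1, had -0.07 and 0.06 log2 (adjusted p = 0.92 and 0.91). CRYZ, a quinone oxidoreductase like TP53I3, had -0.23 and -0.30 log2. CD70, another ligand of the TNF family, had 0.70 and 0.49 log2, neither called. CYP4F12, CEACAM19, DUSP2 and FAM13B, the relatives with the highest level in TK6 in their families, had -0.21 to 0.26 log2 at both times and were not called either. Of 14 measured lysosomal hydrolases other than FUCA1, 0 were called at 3 h. At 6 h 2 were called higher, where 4.01% of all genes were, LIPA by 0.48 log2 and MAN2B1 by 0.61 log2.

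Other genes shared the pattern. Over the 10 differences (5 lines, 2 times), the mean of the members was most like F5, which encodes coagulation factor V (Pearson r = 0.993), among 227 genes with a difference of at least 1 log2 in TK6. RETSAT (r = 0.989), PXT1, STARD10, TANC1, CYSRT1, PLS3 and ZNF561-AS1 came next. F5 had 1.29 log2 at 3 h and 1.89 log2 at 6 h in TK6, and at most 0.30 log2 elsewhere. RETSAT, a retinol saturase, had 1.34 and 1.91 log2 in TK6 and at most 0.46 log2 elsewhere. The untreated arrays of a line at one time enter all of these values, so such likeness is a description. Of the genes that are no members, LCE1B (2.60 log2 in TK6 at 6 h), KIF5A (2.43 log2), CYP4F2, LINC01588 (2.44 log2), PXT1 (2.02 log2), CHRNA6 (1.75 log2) and INHBE (1.85 log2) were among those with the largest excess over the other lines.

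The probe set mattered for the size of a change. The members had 20 probe sets of their own, and 6 members had more than 1. The second probe sets of FUCA1, GASK1B, ZNF697 and FAM13C lay at 2.63 to 4.10 log2 in irradiated TK6 cells at 6 h. Irradiated and untreated arrays then overlapped for FUCA1 (0.58 log2), ZNF697 (0.24 log2) and FAM13C, but not for GASK1B (0.88 log2). They also overlapped for a further probe set of CEACAM1 (0.27 log2) and one of ASTN2 (0.76 log2). The remaining probe sets of CEACAM1 and ASTN2 did not overlap. Averaging all probe sets of a gene lowered the TK6 difference at 6 h to 2.55 log2 for FUCA1, 2.17 log2 for GASK1B, 1.81 log2 for CEACAM1, 0.86 log2 for ZNF697 and 2.39 log2 for ASTN2. The second probe set of FAM13C was below the level limit in TK6 and averaged 2.63 log2 in irradiated cells at 6 h, against 2.58 log2 in untreated cells. Another probe set of ASTN2 gave larger differences outside TK6 than the one read. Its difference between irradiated and untreated cells at 6 h was 3.37 log2 in TK6, against 1.29 log2 in the arrays labelled HepG2, 1.14 log2 in U2OS, 0.69 log2 in G361 and 0.65 log2 in BJ. Its irradiated arrays lay above all untreated ones in each of these lines.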

How the data were processed

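Total RNA of 75 samples (25 groups of 3) was measured on single-sample arrays with 54675 probe sets. The authors deposited RMA values in log2 units, per the submitters' processing notes; neither the version nor whether all arrays were normalized together is given in the sources used here. Array medians were 3.91 to 4.07 log2, and the number of arrays limits the precision. Of the probe sets, 41097 had 1 gene symbol in the supplied probe table; those with several (1801) or none (11777) were left out. A gene was read from its brightest probe set, on average across 75 arrays. In each line the genes brighter than the lowest 40% of probe-set means were tested (14227 to 14654 genes). These means took in all 15 arrays of a line, the irradiated ones included. In TK6, CYP4F3 and FAM13C passed only with the irradiated arrays. For 0 h levels and for differences between lines, 16027 genes past that limit in some line were tested.

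Linear models were fitted with limma 3.58.1 in R 4.3.3 (lmFit, eBayes with trend): 5 group means per line (15 arrays), 5 line means at 0 h (15 arrays), and 25 group means (75 arrays) with a moderated F for the untreated course. Benjamini-Hochberg adjustment ran over all genes tested, and called means an adjusted p under 0.05. The fit was tested on simulated data. Members and gene lists were chosen with earlier results of these data known. Besides all members, genes were named by rule: of the listed p53 targets, 4 called with largest rise and 4 least changed in TK6 at 6 h, relatives called in TK6 or with the highest level there, the 8 most alike in pattern, the 8 with the largest excess in TK6, and 6 p53 regulators; 1 gene of the last-but-one group is not reported here. A fold against a group below the level limit was taken from that limit. Same-numbered replicates counted as paired where, after removal of group means, each of their 3 correlations was over 0.1, which held for 8 of 10 comparisons of irradiated with untreated cells (not HepG2 at 3 h or BJ at 6 h) and 4 of 10 untreated ones. Alternatives were no level limit, quantile normalization, the mean of all probe sets, the replicate block, each replicate left out, 1 fit of all arrays and a fit of the 6 compared arrays. Start-site sequences came from RefSeq (GRCh38.p14); the arrays' files name no genome build.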

Additional observations from a re-analysis of the deposited data

Results flagged for a closer look

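The change of untreated FUCA1 between 0 h and 6 h differed between the lines (moderated F = 11.2, limma), with the rise in the arrays labelled HepG2. The untreated arrays at 6 h also entered the choice of the members.

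Some members moved opposite to TK6 with no overlap between irradiated and untreated arrays, and these differences between lines were not tested. In the arrays labelled HepG2 at 3 h, GASK1B differed by -0.62 log2 and DUSP14 by -0.42 log2. DUSP14 differed by -0.13 log2 there at 6 h and by -0.24 log2 in G361 at 3 h. In TK6 the same genes differed by 3.32 log2 (GASK1B) and 1.27 log2 (DUSP14) at 3 h and 1.02 log2 (DUSP14) at 6 h. Of all genes, 8.23% at 3 h and 7.02% at 6 h lay wholly below in the arrays labelled HepG2. That share is not given for G361 at 3 h, so nothing is read from the 1 of 8 members that lay below there. The untreated G361 arrays at 3 h include replicate 3, which stood apart, with DUSP14 at 9.45 log2, against 9.23 and 9.15 log2.

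A probe set that the supplied table assigns to both CYP4F2 and CYP4F3 was not used above. In TK6 its irradiated arrays were higher by 0.55 log2 at 3 h and 1.37 log2 at 6 h, without overlap. In the other lines it changed by -0.16 to 0.12 log2.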

How the results depend on the processing

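In TK6 the counts of members and of listed p53 targets called by irradiation stayed within 1.5 times under every alternative. Nothing is read from this for the members, which were chosen by that comparison. Members called in untreated TK6 cells, 1 at 3 h and 1 at 6 h, became 0 and 0 with averaged probe sets and 2 and 2 in 1 fit of all arrays; with 1 replicate left out they ranged from 0 to 1 at both times, and the replicate block gave 2 at 3 h, where numbers did not pair. In HepG2-labelled untreated cells at 6 h, the 1 member called became 2 with the replicate block and up to 3 with a replicate left out (1 to 3). For the difference between lines, quantile normalization gave 1 member at 3 h and 2 at 6 h, and leaving out a replicate gave 0 to 1 and 0 to 3. Members called higher by irradiation, 0 in the 4 other lines, became 1 in U2OS at 6 h with quantile normalization or averaged probe sets (0 to 1 with a replicate left out), 1 in BJ at 6 h with the replicate block, and in HepG2-labelled cells at 6 h 3 with the replicate block, 1 in the 6 compared arrays alone and 0 to 4 with a replicate left out. Listed p53 targets called in U2OS became 14 with the replicate block, 15 in 1 fit of all arrays and 1 in the 6 compared arrays at 3 h; with a replicate left out they ranged from 1 to 11 at 3 h and from 4 to 27 at 6 h. In BJ at 6 h they ranged from 0 to 6 with a replicate left out. In HepG2-labelled cells they ranged from 0 to 1 at 3 h and 0 to 12 at 6 h so, and at 6 h were 5 with the replicate block, 1 with quantile normalization and 1 in 1 fit of all arrays. The cause of these changes was not tested; leaving out a replicate leaves 2 arrays a group. The block changed no other call count of members or p53 targets by over 1.5 times. Over all genes, calls in TK6 were 568 at 3 h and 887 at 6 h; the block gave 1203 and 1868, and leaving out replicate 2 or 3 gave 248 and 212 at 3 h, and 327 and 247 at 6 h. For U2OS the block gave 36 and 157, against 13 and 94; in BJ at 6 h 34 became 75 with the block and 0 without replicate 3. In HepG2-labelled cells 0 genes at 3 h became 935 without replicate 1, and 1 at 6 h became 370 without replicate 1 and 56 with the block; untreated at 6 h, 92 became 306 with the block, 276 without replicate 1 and 12 without replicate 3.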
